A study of Homo sapiens with 12 samples.

Results

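The 59 genes described here were selected on their raw counts in RNA sequencing libraries of NCI-H520, a human lung squamous cell carcinoma line. Each had at least 100 counts in every one of the 6 libraries in which FGGY, a carbohydrate kinase gene, was abundant, and at most 3 counts in every one of the 6 libraries in which it was not. Of 58302 genes in the count table, 36072 had a count in any library and 65 met the rule, and 59 were kept once 6 genes on chromosomes X and Y were dropped, FGGY itself being left out. The rule turned the other way, with the low and high libraries exchanged, held 141 genes.

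The 12 libraries form 4 groups of 3. NCI-H520 cells carrying a lentiviral L1-FGGY construct (OV-L1-FGGY), a chimera of the LINE-1 retrotransposon and FGGY, were given 0.2% DMSO, 10 μM ML355, an inhibitor of 12-lipoxygenase, or 450 μM NVR, an inhibitor of LINE-1. The fourth group is labelled CTRL with DMSO and was read as the empty-vector line (OV-CTRL) at the same DMSO volume. Medium was replaced 5 h after seeding, and the length of treatment is not given in the sources used here. Each line is 1 stable transduction of a cell line, and nothing says that the 3 samples of a group were separate cultures, so that p-values measure only the spread between these samples, which may be technical.

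FGGY had 4782, 5206 and 6196 counts in the OV-L1-FGGY libraries with DMSO and 7346, 6290 and 5080 with ML355, which are the FGGY-high libraries. It had 82, 103 and 88 counts in the libraries labelled NVR and 91, 87 and 78 in those labelled CTRL, which are the FGGY-low libraries. The libraries labelled NVR thus go against their OV-L1-FGGY label for this gene and are called by their label only. Total counts ran from 16242082 to 27004768, and 3 counts, taken as the floor, are 0.138 CPM (counts-per-million) or less in the FGGY-low libraries. FGGY level, vector, and any other difference between the 2 sets of 6 libraries cannot be told apart in this design.

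The labelled cell type was checked against its markers. Of 10 squamous lung markers, 1 had at least 10 counts in each FGGY-high library (PERP, a desmosomal protein, at a mean of 1090 CPM with DMSO) and 4 did in each FGGY-low library. SOX2, a defining factor of squamous lung tumours, was at 0 counts in all 6 FGGY-high libraries and averaged 10.1 CPM in the libraries labelled NVR and 16.4 CPM in those labelled CTRL, and KRT6A and DSG3 were at 0 on both sides. KRT19, an epithelial keratin, had at most 3 counts in any FGGY-high library and averaged 103 and 136 CPM in the FGGY-low groups. KRT8, KRT18 and CDH1 of the same list were also lower in the FGGY-high groups. EPCAM of that list went the other way, at 9.6 CPM with DMSO and 9.1 with ML355 against 0.789 (NVR) and 1.61 (CTRL). So did the squamous markers PERP, at 143 (NVR) and 113 CPM (CTRL), and KRT14, with no count in any FGGY-low library. The summed squamous list was at 129 to 181 CPM in the FGGY-low libraries. Several marker lists were also lower with ML355. The summed level of the squamous list went from 1050 to 1130 CPM with DMSO to 329 to 337 CPM with ML355, where PERP averaged 329, that of 5 epithelial markers from 924 to 966 CPM to 454 to 540, and that of 5 endothelial markers from 9.54 to 10.3 CPM to 0.375 to 0.809. The part these marker differences play in the results below was not tested.

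Of the 59 genes, 50 code for proteins in GENCODE 44, 7 are long noncoding RNAs and 1 is a pseudogene. The identifier ENSG00000273301 is not in that annotation, so that its chromosome could not be checked. By function, assigned after the values were seen, 12 encode receptors, adhesion proteins or enzymes of the cell surface, 11 transcription factors, 10 intracellular enzymes or other proteins, 5 extracellular matrix proteins, 4 secreted proteins, 4 transporters or membrane junction proteins, 2 germ cell proteins and 2 inhibitors of the cell cycle. Several are known from placenta, germ cells or connective tissue and are seen in tumours outside their usual tissue, among them the glycoprotein hormone subunit CGA, the placental and germ cell alkaline phosphatases ALPP and ALPG, and the folate receptor FOLR1. CDKN2A and CDKN2B encode p16INK4a and p15INK4b, which hold back the kinases CDK4 and CDK6 and so keep the retinoblastoma protein active; CDKN2A also encodes p14ARF, which acts on p53.

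Promoter sequence is shown for 4 of the genes, as the 250 bases before the RefSeq start on GRCh38.p14, written 5′ to 3′ on the gene's strand. CGA is shown because it had the highest count among the 59 and the largest fall with ML355. In its window at chr6:87095107-87095356, capitals mark the cAMP response element TGACGTCA, found at 142 and 124 bases before the start, and the TATA box TATAAA at 29 bases before it. ALPP (chr2:232378501-232378750) and ALPG (chr2:232406594-232406843) are shown because they are near copies, with 216 of 256 aligned positions identical over the 2 windows printed (84.4%), and capitals in ALPG mark the GC box GGGCGG. CDKN2B (chr9:22009306-22009555) is shown as the member of the 9p21 locus with no count in any FGGY-low library, with capitals on each CG pair, of which it holds 18.
CGA: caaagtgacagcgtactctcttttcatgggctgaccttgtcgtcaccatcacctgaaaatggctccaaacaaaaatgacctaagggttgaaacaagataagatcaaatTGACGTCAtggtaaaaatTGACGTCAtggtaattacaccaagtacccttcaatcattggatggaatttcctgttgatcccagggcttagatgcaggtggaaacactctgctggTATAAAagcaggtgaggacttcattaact
ALPP: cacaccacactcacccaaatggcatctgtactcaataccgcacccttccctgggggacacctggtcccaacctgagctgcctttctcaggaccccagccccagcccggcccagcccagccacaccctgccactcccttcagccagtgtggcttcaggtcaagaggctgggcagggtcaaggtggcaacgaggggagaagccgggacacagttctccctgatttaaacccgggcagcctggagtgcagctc
ALPG: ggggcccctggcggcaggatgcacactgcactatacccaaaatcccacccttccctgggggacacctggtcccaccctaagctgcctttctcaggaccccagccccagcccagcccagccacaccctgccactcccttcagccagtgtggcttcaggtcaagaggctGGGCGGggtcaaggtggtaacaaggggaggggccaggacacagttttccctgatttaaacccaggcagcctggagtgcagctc
CDKN2B: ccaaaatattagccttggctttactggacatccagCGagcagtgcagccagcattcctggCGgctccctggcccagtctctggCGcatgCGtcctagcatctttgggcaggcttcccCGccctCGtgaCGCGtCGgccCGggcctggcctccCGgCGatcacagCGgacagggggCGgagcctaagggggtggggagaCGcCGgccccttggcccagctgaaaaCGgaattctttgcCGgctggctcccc

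Over all members, promoter windows held fewer CG pairs than those of other genes. In windows from 250 bases before to 50 after the GENCODE 44 start of the canonical transcript, found for 58 of the 59 genes on hg38, the ratio of observed to expected CG pairs was at least 0.6 in 29 (50%), against 79.0% of 14744 genes tested. The median ratio was 0.597 in the members and 0.833 in the genes tested, while the median GC content was 62.8% and 65.3%. The TATA box TATAAA, searched like the other motifs on both strands, was in 7 windows (12.1% against 6.81% of genes tested), the AP-1 motif TGANTCA in 4 (6.90% against 4.50%) and the GC box GGGCGG in 27 (46.6% against 68.0%). The response element TGACGTCA was in CGA alone among the members (1.72% against 3.09%). These motifs do not overlap one another, and a match is a description of the letters, not of factor binding.

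The gap between the 2 sets of libraries is what chose the genes and is given without a test. The median count of the 59 was 647, 687 and 767 in the 3 DMSO libraries and 357, 329 and 363 in the 3 ML355 libraries, and it was 0 in each FGGY-low library. Summed over the 59, there were 164124, 171636 and 181558 counts with DMSO, which is 10100, 9840 and 9910 CPM of the library total, and 69801, 55669 and 65008 with ML355, or 3320, 2980 and 3290 CPM. The libraries labelled NVR held 21, 37 and 15 such counts in all and those labelled CTRL 23, 26 and 31, which overlap. The share of the library taken by the members in an FGGY-low library was 0.00684% to 0.0138% of that in the DMSO libraries.

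**Figure D1:**
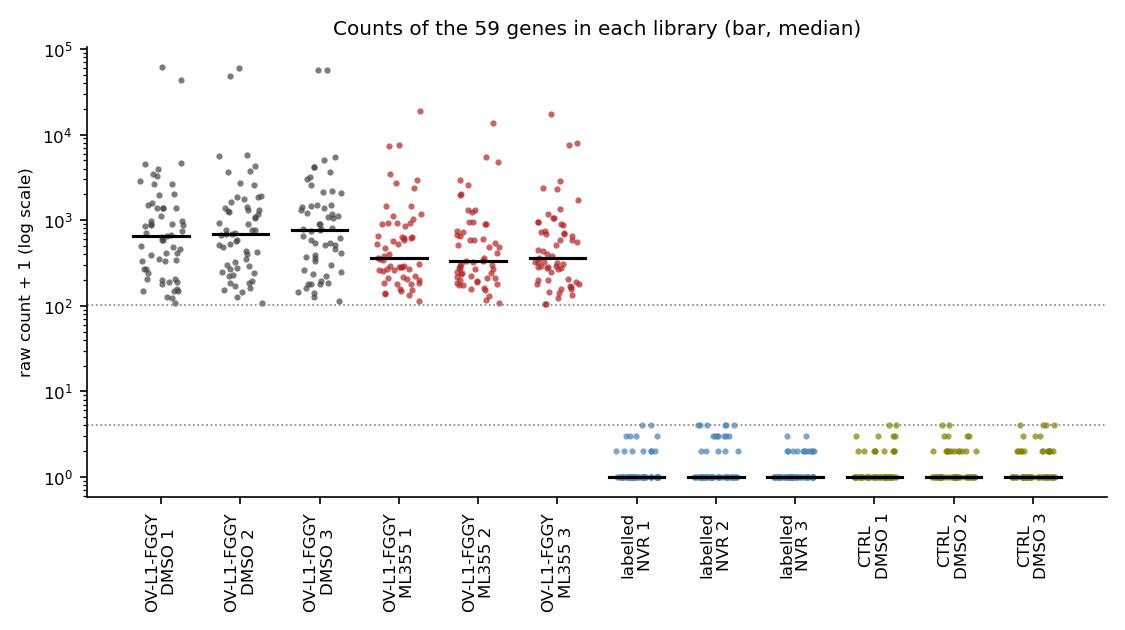
Raw count plus 1, on a log axis, of each of the 59 genes (points) in each of the 12 libraries, with the median as a bar and the limits of the rule as dotted lines. The medians are 647 to 767 with DMSO and 329 to 363 with ML355 in OV-L1-FGGY, and 0 in each library labelled NVR or CTRL.

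Within the FGGY-low libraries, 15 of the 59 had no count in any of the 6, 27 had 1 to 3 counts over all 6, and 17 had more than 3, with 10 reaching 3 in a single library. The 15 include CGA, CDKN2B, DCN and MT1E. At the other limit, the members with the lowest FGGY-high counts were ZNF100 at 103, ZNF888 at 105, LTF and FOXP2 at 106 and SLC1A3 at 115. Just outside it were ANO2 at 98, ZNF816 at 96, COX7B2 at 94, CPED1 at 91 and SP8 at 88, and TIMP3, TRPS1, GALNT3, SLC43A3 and MYO1G were outside because 1 FGGY-low library had 4 counts.

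Most of the 59 genes were lower with ML355. In edgeR's quasi-likelihood test on the 6 FGGY-high libraries, at an adjusted p under 0.01 over 14841 genes, 35 of 59 were lower (59.3%, against 27.8% of all genes tested) and 10 were higher (16.9%, against 27.6%), while 14 did not pass. Among the 9570 other genes with at least 100 counts in each of these 6 libraries, which the rule's minimum makes the closer background, 25.3% were lower and 32.3% higher. The median log2 fold change was -0.82 over the 59 and 0.08 over those 9570 genes. The rule asks for 100 counts on both sides of this comparison, so that it fixes no direction, but a gene of few counts could not fall far and remain a member. A gene that rose from fewer than 100 counts with DMSO was likewise left out. The minimum asked of the ML355 libraries only gave 21 higher and 35 lower, with a median of -0.38. Asked of the DMSO libraries only, it gave 10 higher and 71 lower, with a median of -1.37.

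The falls were large as well as frequent. At least a 2-fold fall passed the test for 25 members (42.4%, against 8.51% of the other genes with at least 100 counts) and at least a 2-fold rise for 4 (6.78%, against 10.2%). The DMSO and ML355 libraries did not overlap in CPM for 50 members, 38 of them lower with ML355 and 12 higher, where 70.2% of all genes tested did not overlap. The median change of the members against the DMSO mean was -0.81, -0.77 and -0.87 in the 3 ML355 libraries, with an SD of 0.053 over the 3.

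**Figure D2:**
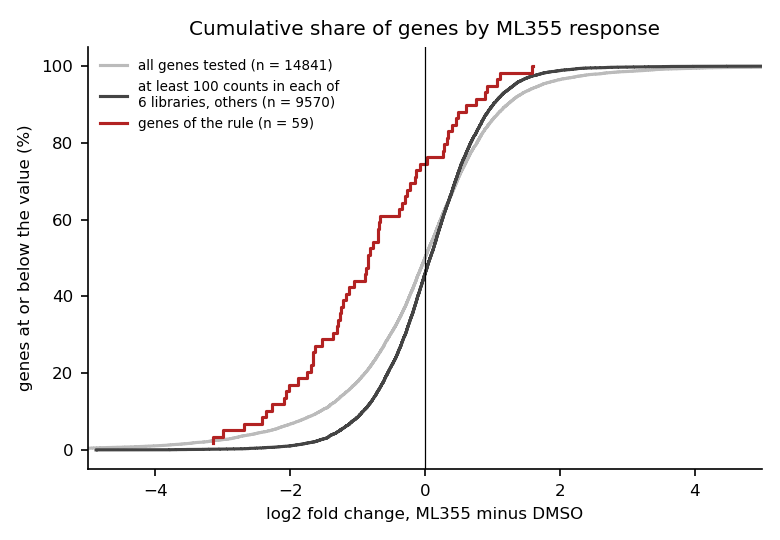
Cumulative share of genes (%) against the log2 fold change with ML355 relative to DMSO in OV-L1-FGGY, for the 59 genes, for the other 9570 genes with at least 100 counts in each of the 6 libraries, and for all 14841 genes tested. The line of the 59 genes lies to the left of both others over most of the range, with a median of -0.82 against 0.08 for the 9570 genes.

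CGA and FOLR1 dominated the members' counts. Together they made up 63.3% of the members' counts with DMSO and 37.2% with ML355. Without them the members took 3670, 3650 and 3650 CPM with DMSO and 2060, 1960 and 2020 with ML355, so that the remaining members were also lower in every ML355 library than in any DMSO library. Per length of exons, FOLR1 and CGA were at 1710 and 1650 RPKM (CPM divided by exon length in kilobases) with DMSO, and the next was PRSS21 at 102 RPKM.

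CGA (ENSG00000135346, chr6:87085498-87095106, minus strand) encodes the alpha subunit shared by chorionic gonadotropin and the pituitary glycoprotein hormones. It had 60788, 59661 and 57410 counts with DMSO and 7641, 5431 and 7894 with ML355, and no count in any FGGY-low library. The levels were 3280 CPM with DMSO and 371 ± 69.7 CPM (SD, n = 3) with ML355, a log2 fold change of -3.14 ± 0.15 (SE; edgeR adjusted p = 2.83e-11). Every ML355 library was far below every DMSO library. The beta subunits that pair with it in the hormones were not seen at like levels: CGB3, FSHB and TSHB were at 0 counts in all 12 libraries, and CGB5, CGB8 and LHB had at most 12 counts in any FGGY-high library.

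The other secreted members were WFDC1, TFF2 and LTF, and 3 of the 4 secreted proteins fell (25.3% of the 9570 other genes with at least 100 counts). WFDC1, a whey acidic protein domain protein (ENSG00000103175, chr16:84294846-84329844), had 4694, 5795 and 5482 counts with DMSO and 937, 676 and 955 with ML355, a log2 fold change of -2.69 ± 0.13 (SE; edgeR adjusted p = 2.83e-11). Of the 5 genes of a whey acidic protein inhibitor list, 4 could be tested and each was lower, against 27.8% of all genes tested, including the leukocyte protease inhibitor SLPI at -1.25 and elafin (PI3) at -1.84. Of the other lists, 6 of 7 tested genes of the C4b-binding protein and complement regulators and 2 of 4 tested serine proteases were lower and none was higher, and of the glycoprotein hormones CGA alone could be tested. LTF, which encodes the iron-binding protein lactoferrin, moved the other way, with 106, 106 and 114 counts with DMSO and 400, 301 and 315 with ML355 (log2 fold change 1.58 ± 0.16, edgeR adjusted p = 2.14e-07).

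Of the 12 cell surface members, 8 were lower, 1 was higher and 3 did not pass. The shares over the 9570 other genes with at least 100 counts were 25.3% lower and 32.3% higher. FOLR1, the high-affinity folate receptor alpha (ENSG00000110195, chr11:72189558-72196323), had 43794, 48364 and 57243 counts with DMSO, 18938, 13716 and 17259 with ML355, and 0 to 3 in the FGGY-low libraries. It fell by 1.63 on the log2 scale (SE 0.13, edgeR adjusted p = 8.67e-09), from 2730 ± 216 to 882 ± 124 CPM (SD, n = 3). The reduced folate carrier gene SLC19A1, which also brings folate into cells, was at -1.41 with ML355 and had at least 539 counts in each FGGY-low library, unlike FOLR1.

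ALPP encodes the placental alkaline phosphatase and ALPG that of germ cells (chr2:232378724-232382889 and chr2:232406844-232410714, 24.0 kb apart). ALPP had 3254, 3616 and 4155 counts with DMSO and 523, 329 and 580 with ML355, and ALPG had 1570, 1874 and 2050 with DMSO and 854, 596 and 942 with ML355. The fall was larger for ALPP, at -2.99 ± 0.17 on the log2 scale, than for ALPG, at -1.25 ± 0.14 (edgeR adjusted p = 6.87e-09 and 1.23e-06), a difference between genes that was not tested. The intestinal gene of the same cluster, ALPI, had 305 to 384 counts with DMSO, 8 to 14 with ML355 and none in the FGGY-low libraries, and is no member only because of the minimum asked of the ML355 libraries. How the authors' counting treated reads that match more than 1 of these near copies is not stated, so that the split between them is uncertain.

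Among the adhesion proteins, NEGR1, an immunoglobulin-domain protein of neurons, had 1962, 1758 and 2165 counts with DMSO and 577, 515 and 381 with ML355 (log2 fold change -2.06 ± 0.14, edgeR adjusted p = 1.44e-09). CDH13, a cadherin without a cytoplasmic tail, had 2000, 1840 and 2152 counts with DMSO and 1044, 899 and 657 with ML355 (-1.26 ± 0.14, edgeR adjusted p = 6.08e-07). PRSS21, the serine protease testisin, fell by less, from 200 ± 7.97 to 125 ± 14.7 CPM (SD, n = 3).

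FZD10 was the surface member that rose. This Wnt receptor gene (ENSG00000111432, chr12:130162459-130165740) had 1387, 1624 and 1520 counts with DMSO, 2925, 2968 and 2846 with ML355, and 1 count in all 6 FGGY-low libraries together. Its log2 fold change was 0.90 ± 0.10 (SE; edgeR adjusted p = 4.91e-07), and the groups did not overlap. LEF1, a transcription factor that acts at the end of the Wnt pathway, had 149, 124 and 145 counts with DMSO and 152, 150 and 142 with ML355, which overlap (log2 fold change 0.03 ± 0.18).

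The 5 extracellular matrix members fell without exception, with log2 fold changes from -2.35 to -1.37. At least a 2-fold fall passed for 8.51% of the 9570 other genes with at least 100 counts. MFAP5, a protein of elastic microfibrils, had 2628, 2706 and 2603 counts with DMSO and 614, 491 and 511 with ML355 (-2.35 ± 0.11, edgeR adjusted p = 2.83e-11). LUM and DCN encode lumican and decorin, small leucine-rich proteoglycans that bind collagen fibrils, and lie 29.0 kb apart on chromosome 12. LUM had 4000, 4327 and 4224 counts with DMSO and 1471, 1246 and 1165 with ML355 (-1.75 ± 0.10, edgeR adjusted p = 3e-10), and DCN had 966, 1266 and 1204 with DMSO and 261, 193 and 282 with ML355 (-2.27 ± 0.14, edgeR adjusted p = 6.92e-10). LAMA1, the laminin alpha 1 chain of basement membranes, had 2650, 1939 and 3214 counts with DMSO and 929, 953 and 913 with ML355, the DMSO libraries being the more scattered with the highest coefficient of variation among the members, 23.1%. COL25A1, a transmembrane collagen, was the fifth.

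LUM and DCN are also 2 of the 6 genes of the fibroblast marker list, and 4 of the 6 had at least 10 counts in each FGGY-high library. The summed level of the list was 366 to 392 CPM with DMSO and 116 to 118 CPM with ML355, and 17.5 to 26.4 CPM in the FGGY-low libraries, where the rule keeps LUM and DCN near 0. Without these 2 members it was 60.6 to 76.4 CPM with DMSO, 35.8 to 43.0 with ML355 and 17.5 to 26.4 in the FGGY-low libraries. COL1A2, which fibroblasts express with COL1A1, had at most 2 counts in any of the 6 FGGY-high libraries, where COL1A1 averaged 60.2 CPM with DMSO. Defining trophoblast genes were likewise at or near 0 beside CGA and ALPP, with HSD3B1 and CSH1 at 0 and GCM1, ERVW-1 and PSG1 at no more than 8 counts in any FGGY-high library. In such bulk samples fewer cells of a type and less RNA per cell cannot be told apart.

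Of the 11 transcription factor genes, 2 were higher, 4 lower and 5 did not pass, with a median log2 fold change of -0.08. Of the 9570 other genes with at least 100 counts, 32.3% were higher and 25.3% lower, and a difference of this class from them was not tested. TLX3, a homeobox factor of developing neurons, had the largest rise among the 59, from 125, 160 and 180 counts with DMSO to 476, 410 and 579 with ML355 (log2 fold change 1.61 ± 0.16, edgeR adjusted p = 1.94e-07). It had no count in any FGGY-low library. FOXP2, a forkhead factor known for its part in speech development, had 187, 168 and 181 counts with DMSO and 114, 106 and 122 with ML355 (-0.70 ± 0.18, edgeR adjusted p = 0.00220), and ZNF100 had 207, 268 and 235 with DMSO and 139, 210 and 103 with ML355 (-0.70 ± 0.22, edgeR adjusted p = 0.00961). ZNF100, with the largest coefficient of variation of the members with ML355 (37.1%), no longer passed without any 1 of 5 libraries, at -0.75 to -0.49, nor did FOXP2 without DMSO replicate 1, at -0.62. SIX2, ISL1, LEF1, ZNF600 and ZNF736 did not pass.

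FOXF1 and FENDRR are neighbours that moved in opposite directions. FOXF1, a forkhead factor of lung and gut mesenchyme, and the long noncoding RNA FENDRR are transcribed away from each other from starts 1.43 kb apart (chr16:86510527-86515422 and chr16:86474529-86509099). FOXF1 had 861, 917 and 1066 counts with DMSO and 1479, 1305 and 1354 with ML355 (log2 fold change 0.49 ± 0.11, edgeR adjusted p = 0.000571). FENDRR had 1110, 1241 and 1308 counts with DMSO and 271, 335 and 279 with ML355 (-2.10 ± 0.13, edgeR adjusted p = 3.65e-10). Neither pair of groups overlapped. FOXF1 had 1 count and FENDRR none over the 6 FGGY-low libraries. FOXC2 and FOXL1, further along the same cluster, were divided in the same direction but kept counts in each FGGY-low library. FOXC2 had 298 to 811 counts in the FGGY-high libraries and 5 to 12 in the FGGY-low ones, and FOXL1 had 183 to 835 and 18 to 51.

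Of the 7 long noncoding RNAs, 4 were lower, 2 higher and 1 did not pass (25.3% lower and 32.3% higher over the 9570 other genes). LINC01537, which lies 374 kb from FOLR1, had 901, 1085 and 1165 counts with DMSO and 219, 215 and 179 with ML355 (-2.41 ± 0.13, edgeR adjusted p = 8.68e-11). ENSG00000234147 rose from 270, 291 and 259 counts to 612, 489 and 685 (1.07 ± 0.15, edgeR adjusted p = 6.54e-06). ENSG00000259881 rose from 200, 239 and 186 to 380, 277 and 438 (0.75 ± 0.18, edgeR adjusted p = 0.00122), but it lies opposite CBFA2T3 on the other strand, and it did not pass without DMSO replicate 3, at 0.63. ENSG00000261116 lies on the same strand within the last part of FAM83B. FAM83B was at -0.22 and did not pass and ENSG00000261116 was lower at -1.13, and the difference between them was not tested.

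RSAD2 and MT1E were the 2 intracellular members of 10 that rose, and 6 fell (32.3% higher and 25.3% lower over the 9570 other genes). RSAD2 encodes viperin, an antiviral enzyme induced by interferon, and had 1405, 1409 and 1429 counts with DMSO and 3493, 2547 and 2317 with ML355 (0.92 ± 0.12, edgeR adjusted p = 6.19e-06). MT1E, a metallothionein that binds zinc and copper, had 1376, 1386 and 1461 counts with DMSO and 2353, 1975 and 1734 with ML355 (0.46 ± 0.11, edgeR adjusted p = 0.00132), a rise that did not pass without DMSO replicate 2 or 3, at 0.43 and 0.44. It had no count in any FGGY-low library, while its neighbours MT2A and MT1F had 15607 to 65589 and 243 to 515 counts there. MT1A had 84 to 285 counts in the FGGY-low libraries and none in the FGGY-high libraries. As with the alkaline phosphatases, the treatment of reads shared between metallothioneins is not stated.

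Of the 4 transporter or junction genes, MCTP2, which encodes a calcium-binding membrane protein, fell from 2854, 2558 and 2993 counts to 1180, 1309 and 1073 (-1.29 ± 0.11, edgeR adjusted p = 2.89e-08), and so did the glutamate transporter SLC1A3 (-1.05 ± 0.16). JPH1, which joins the plasma membrane to the endoplasmic reticulum, had 179, 228 and 192 counts with DMSO and 280, 363 and 307 with ML355 (0.62 ± 0.16, edgeR adjusted p = 0.00280), lies opposite GDAP1, and did not pass without DMSO replicate 1 or 3, at 0.58 and 0.54. The 2 germ cell genes moved in opposite directions, with M1AP, needed in meiosis, going from 122, 145 and 181 counts to 340, 338 and 328 (1.12 ± 0.16, edgeR adjusted p = 7.2e-06), and TDRD9, which acts in silencing of transposons in the germ line, lower.

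**Figure D3:**
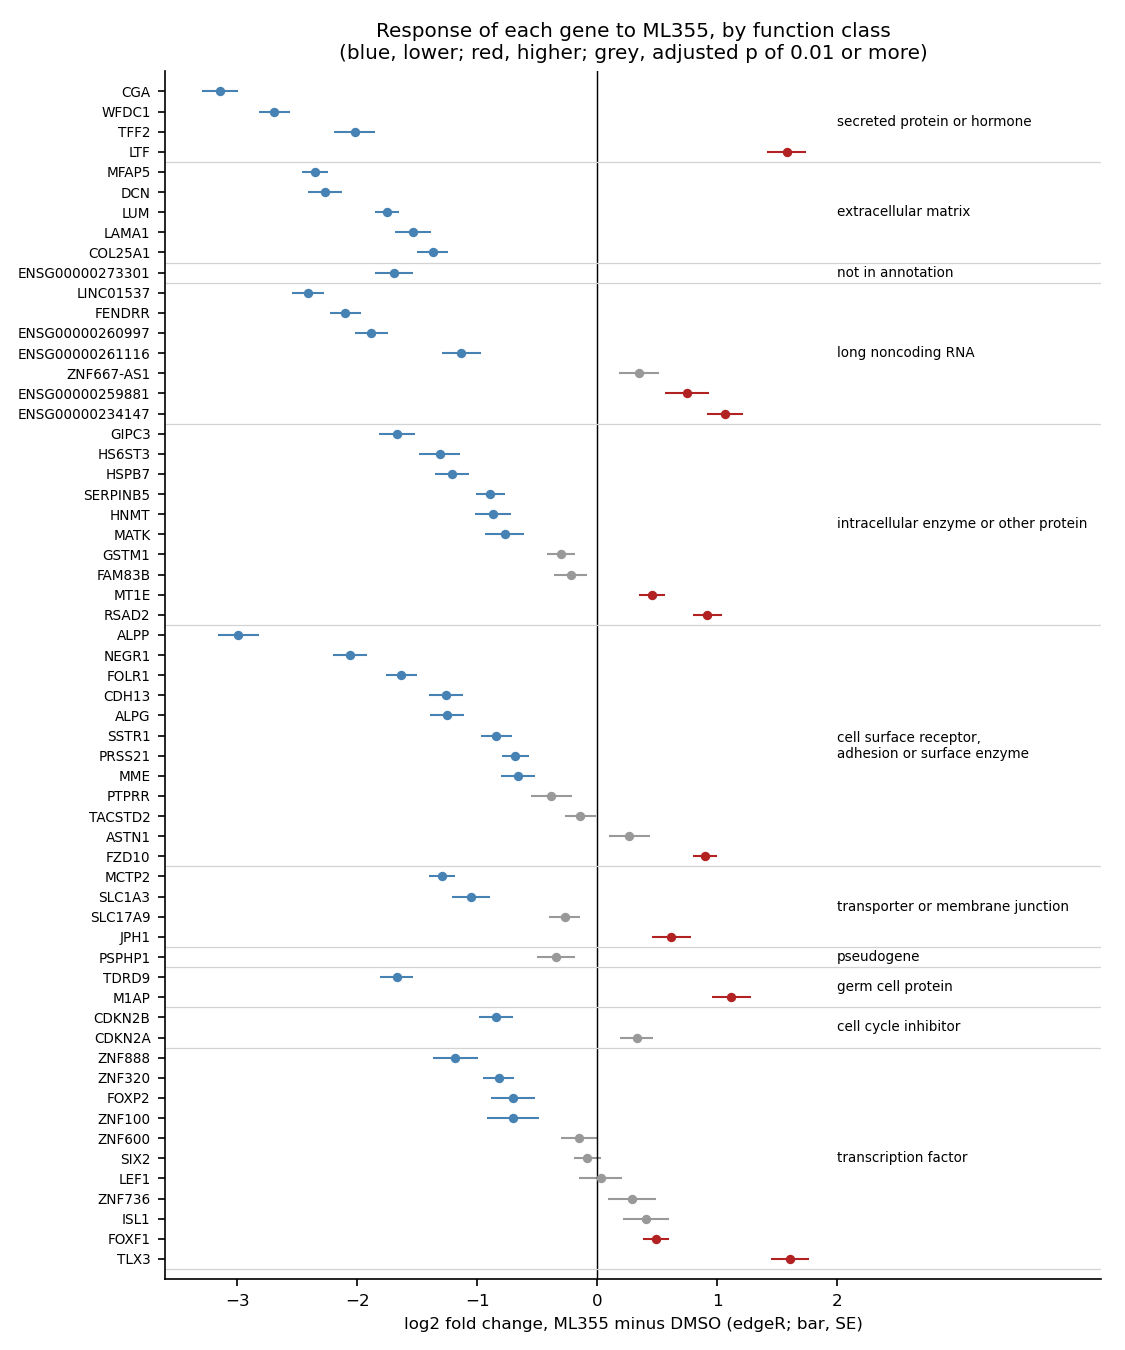
Log2 fold change with ML355 relative to DMSO in OV-L1-FGGY for each of the 59 genes, with its SE as a bar, grouped by function class and coloured by whether the gene was lower, higher or did not pass an adjusted p of 0.01. All 5 extracellular matrix genes lie between -2.35 and -1.37, whereas the 11 transcription factors spread from -1.18 to 1.61.

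The cell cycle inhibitors CDKN2A and CDKN2B lie 7.60 kb apart at 9p21 (chr9:21967752-21995301 and chr9:22002903-22009305). CDKN2A had 4489, 5594 and 5078 counts with DMSO, 7439, 4836 and 7470 with ML355, and 1 count over the 6 FGGY-low libraries. Its groups overlapped, and its log2 fold change of 0.33 ± 0.14 did not pass (edgeR adjusted p = 0.0538). It did pass with no filter on low counts, at 0.33, and without ML355 replicate 2, the lowest of the 3, at 0.51. CDKN2B had 910, 1188 and 1078 counts with DMSO, 525, 752 and 553 with ML355 and none in the FGGY-low libraries, and was lower with ML355 (-0.84 ± 0.14, edgeR adjusted p = 7.9e-05).

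Other genes of the locus shared the division. MTAP, the methylthioadenosine phosphorylase gene next to CDKN2A, had 419 to 517 counts with DMSO and 271 to 339 with ML355, but 1 to 7 in the FGGY-low libraries, which placed it outside the rule. CDKN2B-AS1, which overlaps both inhibitors on the opposite strand, had 20 to 66 counts in the FGGY-high libraries and none in the others. Further out on both sides, KLHL9 had 344 to 453 counts in the FGGY-high and 387 to 810 in the FGGY-low libraries, and DMRTA1 had 82 to 231 and 39 to 95. MIR31HG and IFNE, which lie between KLHL9 and MTAP, were the reverse, with 0 to 10 and 0 to 4 counts in the FGGY-high libraries and 82 to 137 and 50 to 120 in the FGGY-low ones. On the other side ENSG00000236921, between CDKN2B and DMRTA1, was also the reverse, with 0 to 3 and 8 to 80 counts. LINC01239, beyond DMRTA1, had 0 to 7 and 6 to 31, which meet. DNA copy number and methylation of the locus were not measured in these libraries.

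In a list of 17 genes of the p16 and retinoblastoma pathway, 16 could be tested, of which 9 were lower with ML355 and 2 higher, with a median log2 fold change of -0.48 (27.8% of all genes tested were lower and 27.6% higher). Of 9 genes at or near the 9p21 locus, 6 could be tested, of which 3 were lower and 1 higher, these lists sharing CDKN2A and CDKN2B. The 2 that rose were the inhibitors CDKN1A (p21), at 1.65, and CDKN2D (p19INK4d), at 3.16, while the kinase gene CDK6 was at -0.72, CCND1 at -0.92, RB1 at -0.38 and E2F3 at -1.40. In contrast to CDKN2A and CDKN2B, each of CDK4, CDK6, CCND1 and RB1 had at least 190 counts in each of the 12 libraries.

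The zinc finger family made up 6 of the 59 by symbol (10.2%, against 3.16% of genes tested), including the antisense RNA ZNF667-AS1. ZNF600, ZNF320 and ZNF888 lie within 1 cluster on chromosome 19 (chr19:52749942-52923470). ZNF320 had 462, 527 and 511 counts with DMSO and 280, 322 and 277 with ML355 (-0.82 ± 0.13, edgeR adjusted p = 3.37e-05), ZNF888 had 270, 299 and 358 with DMSO and 134, 184 and 105 with ML355 (-1.18 ± 0.19, edgeR adjusted p = 3.67e-05), and ZNF600 did not pass (-0.15 ± 0.15). Of the genes between and beside them, ZNF83, ZNF28, ZNF468, ZNF816 and ZNF702P were also at 11 counts or fewer in every FGGY-low library. ZNF611, which lies between ZNF83 and ZNF600 and so outside this stretch, had counts of the same order on both sides. So did ZNF160, beyond the other end. Zinc finger genes of such clusters are near copies, and their counts share the doubt on shared reads.

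**Figure D4:**
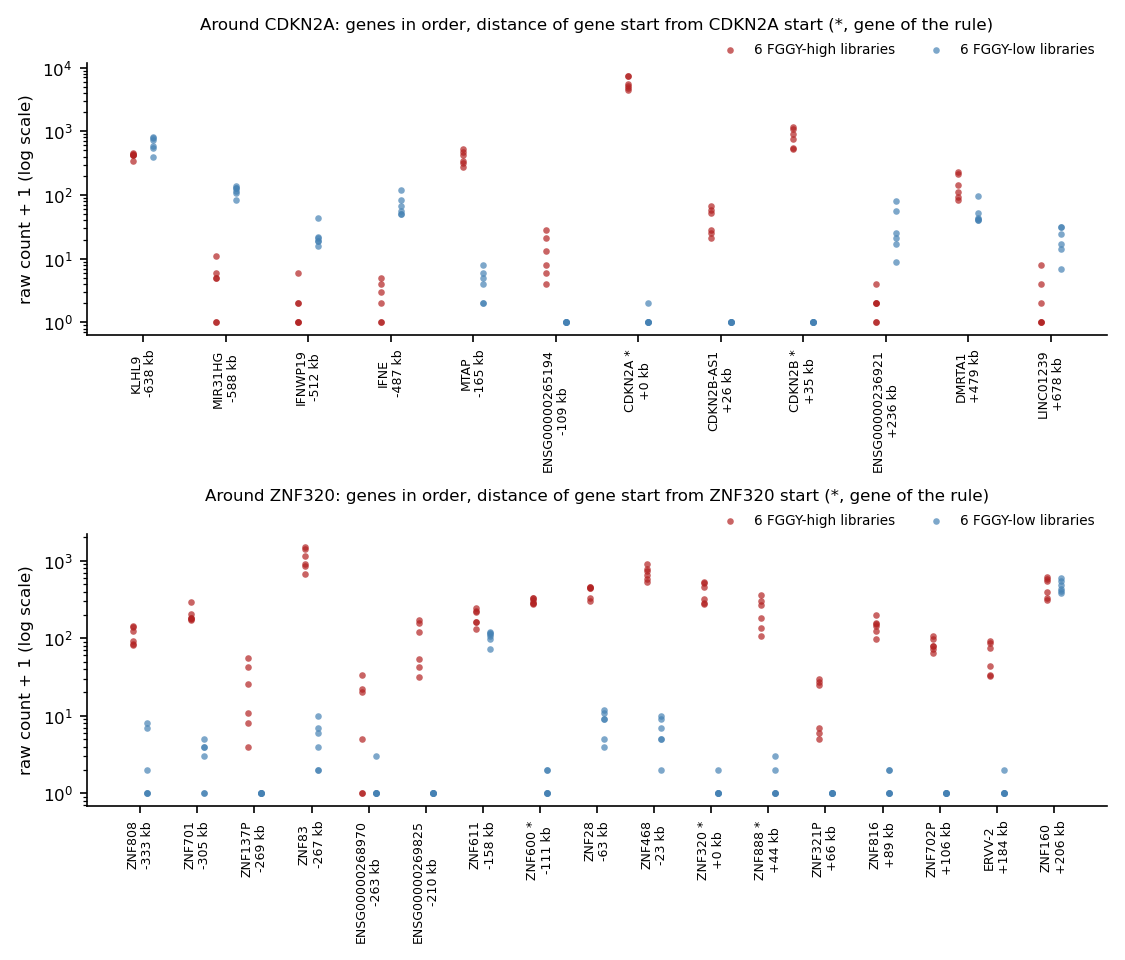
Raw count plus 1, on a log axis, of each gene around CDKN2A (top) and around ZNF320 (bottom), in chromosomal order with the distance of its start from that of the named gene, in the 6 FGGY-high and the 6 FGGY-low libraries (points). MTAP, CDKN2A, CDKN2B-AS1 and CDKN2B have at most 7 counts in any FGGY-low library between KLHL9 and DMRTA1, which have 39 or more in every library, and around ZNF320 each gene but ZNF611 and ZNF160 has at most 11.

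In all, 21 of the 59 had another member within 1 Mb, a share that was not set against that of other genes. Besides the pairs above these were GIPC3 and MATK, CDH13 and WFDC1, and LEF1 and COL25A1. Of the 11 neighbouring pairs, 6 held members that were both lower with ML355, 1 (FENDRR and FOXF1) moved apart, and in 4 only 1 of the 2 passed the test, as for LEF1 at 0.03 and COL25A1 at -1.37. Over all 59 members 59.3% were lower, and whether neighbours moved together more often than other members was not tested. Chromosomes 16 and 19 held 7 members each (11.9%, against 4.80% and 6.83% of genes tested), chromosome 2 held 6 (10.2%, against 6.49%), and chromosomes 10, 17 and 22 held none. The nearest expressed non-members on both sides were divided in the same direction more often than other genes were. Of 104 such neighbours 49 were at least 2-fold higher in mean CPM in the FGGY-high libraries (47.1%, against 26.6% of 12267 non-members) and 15 at least 2-fold lower (14.4%, against 24.0%), a description with no test since the rule used this contrast. The minimum mean count was taken over all 12 libraries, so that a gene high on 1 side only could enter. Some neighbours are themselves just outside the rule, such as ALPI, at a mean of 175.8 counts against 0, and ZNF816, at 145.5 against 0.3.

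GSTM1, a glutathione transferase gene that is missing from the genomes of many people, is described although the rule for named genes does not reach it, having been picked after its values were seen. It lies in a cluster of related genes (chr1:109687814-109709039) and had 882, 898 and 890 counts with DMSO, 903, 655 and 699 with ML355, and none in the FGGY-low libraries. Its log2 fold change with ML355 was -0.30 ± 0.12 and did not pass (edgeR adjusted p = 0.0381). Its neighbours GSTM2, GSTM3 and GSTM4 had counts in every library but were also higher in the FGGY-high ones. GSTM3 had 2779 to 3618 counts in the FGGY-high libraries and 140 to 263 in the FGGY-low ones. GSTM4 had 760 to 924 and 252 to 381, and GSTM2 had 38 to 64 and 11 to 38. In all, 9 members overlap another expressed gene, 4 of them on the opposite strand and the others on the same strand, as GSTM1 does with GSTM2. Without knowledge of strand in the counting, reads in the stretch that an opposite-strand pair shares cannot be told apart. For those on the same strand, knowledge of strand would not separate such reads. In the FGGY-low libraries GDAP1 averaged 348.5 counts and HSBP1 4082.2, with JPH1 at 0 in each and CDH13 at 1 or fewer. CBFA2T3 averaged 29.5 there, with ENSG00000259881 at 2 or fewer, and CDKN2B-AS1 averaged 0.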

How the data were processed

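The deposited values are raw counts per gene. The submitters' processing notes name STAR 2.5.3a, HTSeq 0.11.2 and the genome build hg38 for the authors' alignment and counting. The labels name a TruSeq kit where the methods name NEB. The annotation release, strand setting and handling of multi-mapped reads are not given in the sources used here. Of 58302 identifiers, 57532 were matched to GENCODE 44. The members and lists were chosen with earlier results of these data known.

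ML355 was compared with DMSO in the 6 OV-L1-FGGY libraries with edgeR 4.0.16 in R 4.3.3 (TMM scaling, filterByExpr, robust quasi-likelihood fit and test, Benjamini-Hochberg over 14841 genes, adjusted p under 0.01). The other 6 libraries stayed out, since the members sit at 0 to 3 counts in them by rule and would add degrees of freedom at near-zero counts. CPM are TMM-scaled, those of marker lists and member sums use library totals, and RPKM use exon length. The common biological coefficient of variation was 0.126. Libraries labelled NVR or CTRL entered a test only in the alternative with all 4 groups. RefSeq promoter sequence was matched for 35 of the 59 genes. Values are mean ± SD or log2 fold change ± SE. Genes named with values are the 12 members of highest mean CPM, the 8 largest rises and falls, members at 9p or within 1 Mb of another member, the 5 nearest each limit of the rule, and those said to be chosen later. Neighbours are the nearest genes with a mean of at least 50 counts, compared on log2(CPM + 0.5). On simulated data for this comparison, with 200 of 14538 genes changed by 1 on the log2 scale, edgeR recovered 67%, with 6 false calls. Far fewer genes were changed there than passed in the data (27.6% higher and 27.8% lower), and they were drawn from all expression levels. These rates therefore may not hold for the members. The comparison was repeated with DESeq2 1.42.0, with limma 3.58.1 (voom), and with other scalings, filters, thresholds, rules and libraries, and a replicate block. The numbers come from the titles and are not said to mark a day or passage.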

Additional observations from a re-analysis of the deposited data

How the results depend on the processing

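The counts of members higher and lower with ML355 (10 and 35) stayed within 1.5 times under DESeq2, voom, DESeq2's size factors, library size alone, both other filters, all 4 groups in the fit and an adjusted p under 0.05. The median of -0.82 became -0.96 with library size alone, a scaling that shifts the median of all genes by -0.14. Leaving out 1 library gave 7 to 11 higher, 33 to 36 lower and medians from -0.84 to -0.75. Asking for a log2 change of at least 1 left 4 higher. The rest follows from the rule's own limits. A minimum of 50 counts gave 93 members and a median of -0.60, a minimum of 200 gave 36 with 5 higher and 23 lower, a maximum of 0 gave 15 with 3 higher and 9 lower, and a maximum of 10 gave 104 with 19 higher, 55 lower and a median of -0.66. The minimum asked of DMSO libraries only gave 99 with 71 lower and a median of -1.37, and asked of ML355 libraries only, 21 higher and a median of -0.38, as the wider rule lets in genes that fell or rose further. The share of CG-rich promoter windows was 32.8% at a ratio of 0.75. For single genes, LEF1 changed sign, to -0.11 with library size alone and -0.07 without DMSO replicate 2 (range -0.07 to 0.13 with 1 library left out), and FOXF1, MT1E and JPH1 no longer passed with library size alone (0.35, 0.33 and 0.48), nor did JPH1, ENSG00000259881, ZNF100 and FOXP2 with all 4 groups in the fit (0.61, 0.75, -0.71 and -0.71). The causes were not tested.

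Replicate numbers did not pair the samples: the correlation of deviations from the group means was -0.0762 to -0.0451 over the 3 pairs. With the replicate block, 10 members were higher and 35 lower, with a median of -0.83. In the FGGY-low libraries the rule holds the members at 0 to 3 counts, at the limit of depth. It leaves no room for a difference between the libraries labelled NVR and CTRL, which was not tested.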

Other observations

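Asking the minimum of only 1 of the 2 FGGY-high groups brought in further genes. With the minimum of 100 counts asked of the DMSO libraries alone, 40 further genes entered. Among them ADAMTS5, an aggrecan-degrading protease, had 597, 514 and 626 counts with DMSO and 22, 14 and 26 with ML355. PRMT6, an arginine methyltransferase, had 659, 795 and 706 with DMSO and 74, 56 and 69 with ML355, and the neurotensin receptor NTSR1 had 285, 292 and 284 with DMSO and 18, 10 and 12 with ML355. FOXN1, a forkhead factor of thymic epithelium and skin, went from 253, 232 and 303 counts to 10, 7 and 7. These 4 had at most 3 counts in any FGGY-low library by selection, since both wider rules kept that limit.

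With the minimum asked of the ML355 libraries alone, 12 genes entered. SPRR2D, a precursor of the cornified envelope of squamous epithelium, had no count in any DMSO library, 151, 109 and 112 with ML355 and at most 2 in an FGGY-low library. The histone genes H2BC7, H2BC8 and H2AC8 also entered, with H2BC7 going from 10, 7 and 9 counts to 378, 124 and 266. These genes were picked after their values were seen, and those wider rules select for the direction in which they moved.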
